A study of Ovis aries with 27 samples.

Results

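The insulin-like growth factor (IGF) genes described here are the ligands IGF1 and IGF2, the receptor IGF1R and the binding protein genes IGFBP1 to IGFBP6, measured in the heart septum of sheep fetuses near the end of gestation. Their probes were found by the gene name or description that the array files give for each spot. All 9 genes were found, with 18 probes among the 15008 gene probes of the array, of which 1381 probes (9.2%) could be tied to 855 named genes. A probe was tested where at least 6 of the 27 arrays read it well above background, which 16 of the 18 probes did, so that each of the 9 genes had at least 1 tested probe. The 2 probes that did not pass were both for IGFBP1, and both were above background on 0 of 27 arrays.

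The comparison took in 4 groups of fetuses, with 1 array of Cy3-labelled cRNA per fetus. Cortisol at 1 mg/kg/day, or vehicle, was infused into the ewe, so that the mother was treated and not the fetus directly. In the first cohort, 6 control and 6 cortisol fetuses were collected at 129 to 131 days of gestation after about 10 days of infusion (control 130 d and cortisol 130 d). In the second cohort, 8 control and 7 cortisol fetuses were collected at 139 to 144 days, close to term, after about 25 days (control 140 d and cortisol 140 d). The 8 control fetuses at 140 d had 7 mothers, and which of them are the pair of twins is not marked. The labels do not settle the infusion length of the first cohort: one protocol starts it near day 120, which gives the 10 days, and another starts every infusion near day 115. The older fetuses belong to another cohort with a longer infusion, so age, cohort and infusion length cannot be told apart. The labels name 1 sample per fetus and do not describe when each RNA was extracted.

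IGF1 and IGF2 are small secreted growth factors, and both signal through the tyrosine kinase receptor IGF1R to promote cell growth, division and survival. The 6 classical binding proteins carry the ligands outside the cell, and they can withhold a ligand from the receptor or deliver it. IGF2 is an imprinted gene that is expressed strongly in many fetal tissues, and the IGF ligands and IGF1R are known for their part in the growth of the fetal heart. Levels here are log2 values relative to the 75th percentile of the same array, so that a higher value means a brighter probe, and a level of 0 equals that percentile. A probe's brightness depends on its sequence as well as on its RNA, so levels are compared between fetuses for a given probe, not between probes.

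The probe sequences show what each value reads, and they matter here because some genes are read by independent oligonucleotides and others by near copies. Each probe is 60 bases long. IGF1 has 1 probe, IGF2 has 2 that share no part, and IGF1R has 3 that share no part:
IGF1 A_70_P051091: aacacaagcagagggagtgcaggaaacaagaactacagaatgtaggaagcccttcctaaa
IGF2 A_70_P016796: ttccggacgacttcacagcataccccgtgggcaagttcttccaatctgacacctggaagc
IGF2 A_70_P029956 (first 30 bases): ctgaaatgaattggctttttagcaacacca
IGF1R A_70_P026721: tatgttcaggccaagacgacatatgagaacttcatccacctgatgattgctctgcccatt
IGF1R A_70_P041041: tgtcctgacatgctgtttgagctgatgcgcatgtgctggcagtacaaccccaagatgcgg
IGF1R A_70_P008176: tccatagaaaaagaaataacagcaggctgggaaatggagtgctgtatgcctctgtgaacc

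For IGFBP1, IGFBP2, IGFBP4, IGFBP5 and IGFBP6 the array holds a pair of probes shifted by 1 base, 5 pairs and 10 probes in all, which share all but 1 of their 60 bases and are not independent readings. The capital marks the 1 base that the partner probe lacks. The pairs for IGFBP2 and IGFBP4, whose levels turned out to differ with age, are shown by the 30 bases that hold that base, and IGFBP5 by the whole probes:
IGFBP2 A_70_P050967 (first 30 bases): Ttttatttttgaacccctgtgtctcttttt
IGFBP2 A_70_P050966 (last 30 bases): cttaagattaaaggaaggaaaaataaaaaA
IGFBP4 A_70_P017097 (first 30 bases): Ctcaactggatggacagagatttaggaacc
IGFBP4 A_70_P017096 (last 30 bases): accagttggccatgatgtcttgtctttttT
IGFBP5 A_70_P041812: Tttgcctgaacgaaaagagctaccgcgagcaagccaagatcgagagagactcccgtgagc
IGFBP5 A_70_P041811: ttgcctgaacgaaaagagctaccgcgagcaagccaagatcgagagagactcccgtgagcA

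The last probes shown are the IGFBP1 probe that lies apart from the shifted pair, and the single IGFBP3 probe, whose 75% of G and C is the highest among the 18 probes:
IGFBP1 A_70_P069081: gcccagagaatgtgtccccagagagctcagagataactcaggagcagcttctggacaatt
IGFBP3 A_70_P028616: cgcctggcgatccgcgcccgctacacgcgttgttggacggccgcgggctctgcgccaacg

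Among the 4 shifted pairs above background, the difference between the partners had an SD of 0.06 to 0.093 over the 27 arrays, and the partners correlated at r = 0.98 to 0.998. The separate IGF2 probes correlated at r = 0.99, although they lie on different stretches of the transcript. The 3 IGF1R probes tracked each other less closely, with r between 0.594 and 0.865. These correlations share the arrays, the groups and the scaling, and are given as a description of the probes.

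Across the arrays, 77.0 to 87.0% of spots were well above background and 0 spots were saturated. The 75th percentile of the signal, which sets the scale, averaged 1160 ± 101 (SD, n = 6) and 1093 ± 77.1 (SD, n = 6) intensity units at 130 d in control and cortisol fetuses, and 838.4 ± 59.3 (SD, n = 8) and 884.3 ± 149 (SD, n = 7) at 140 d. One control fetus at 140 d (replicate 1) and 1 cortisol fetus at 140 d (replicate 4) stood apart from their groups at 11.3% and 13.4% of all probes by Dixon's criterion for an outlying value, against 0.205 to 3.04% for the other 25 arrays, and results that rest on them are given with and without them. Of 20 heart muscle genes looked for, only MB (myoglobin) could be named on the array, and its summed level of 182 to 456 times the array's 75th percentile placed muscle RNA in each of the 27 samples. In control fetuses MB was called higher at 140 d (253 to 430, against 227 to 315 at 130 d), by 0.48 on the log2 scale with an adjusted p of 0.0282, and its part in the age differences below was not tested. With septum tissue read as a whole, fewer cells of a type and less RNA per cell cannot be told apart in any result that follows.

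With age, IGFBP2 fell in both arms, IGF2 fell in control fetuses by 1 of its 2 probes, and IGFBP4 fell in control fetuses by 1 of its 2 nearly identical probes. In control fetuses 4 of the 16 tested probes were lower at 140 d than at 130 d, and 0 were higher. Over all 12770 tested probes 2442 differed, or 19.1%, with 9.77% higher and 9.35% lower. In cortisol fetuses 2 of the 16 probes, both for IGFBP2, were lower and 0 were higher, against 1719 of all tested probes, or 13.5%, with 4.94% higher and 8.52% lower. The IGF probes' median difference was -0.09 in control fetuses and -0.02 in cortisol fetuses, beside -0.01 and -0.04 over all tested probes. The direction of calls over the whole array depended on the scale and the background correction. Of the called probes 51.1% were higher in control fetuses and 36.7% in cortisol fetuses. These shares were 70.6% and 63.8% when each array was scaled to its median, and 71.4% and 64.3% with the authors' deposited table. They were 56.2% and 46.6% with quantile normalization, and 60.8% and 52.2% with the normexp background correction. The median scale raised every age difference by 0.09 in control and 0.102 in cortisol fetuses. This is small beside the differences of IGFBP2 and IGF2 but not beside that of IGFBP4.

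**Figure D1:**
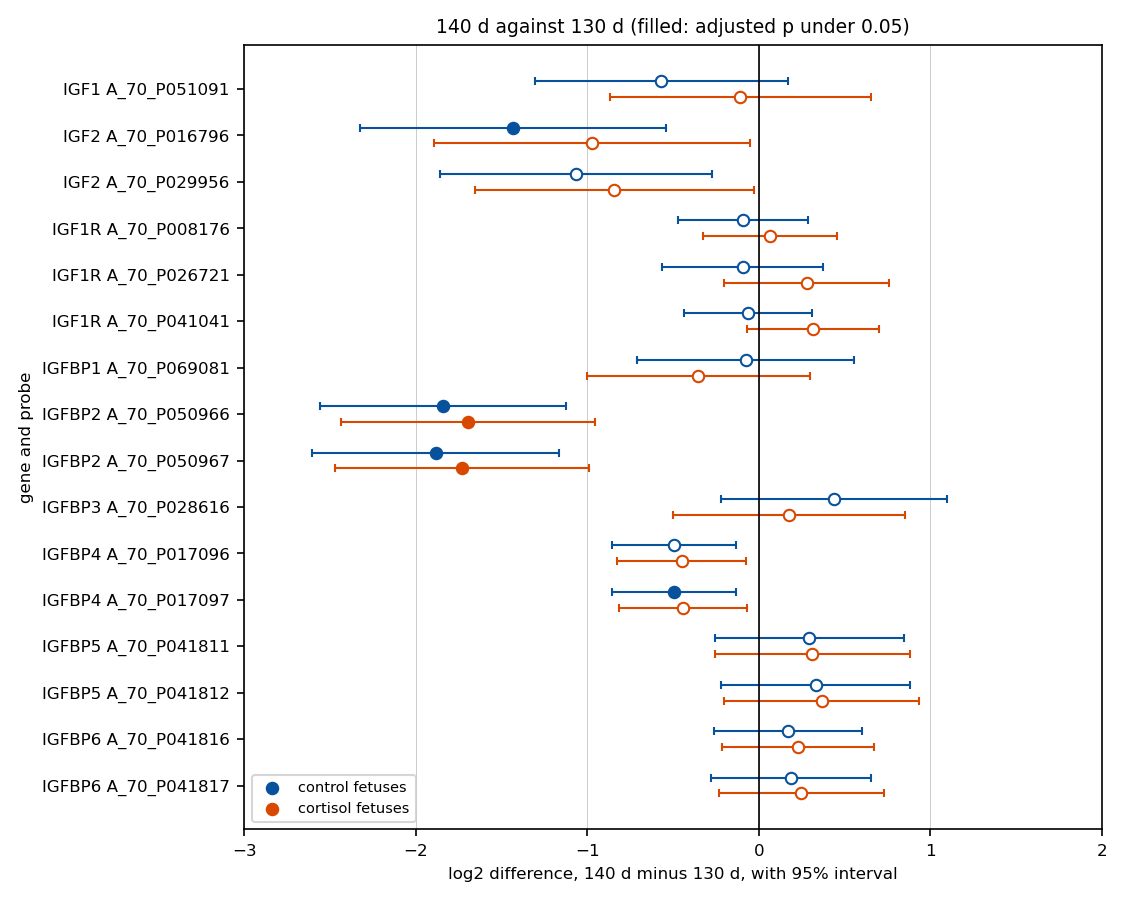
Log2 difference between 140 d and 130 d for the 16 tested probes (vertical axis: gene and probe), in control fetuses (blue) and cortisol fetuses (orange), with the 95% interval; filled points passed an adjusted p of 0.05. Both IGFBP2 probes lie between -1.89 and -1.70 in both arms, the IGF2 and IGFBP4 probes lie below 0 in both arms, and the intervals of the IGF1, IGF1R, IGFBP1, IGFBP3, IGFBP5 and IGFBP6 probes include 0.

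IGF2, the main IGF ligand of fetal tissue, was lower at 140 d. With probe A_70_P016796, control fetuses ranged from 1.94 to 2.76 at 130 d, with a median of 2.41, and from -2.28 to 1.89 at 140 d, with a median of 1.28. The lowest fetus at 130 d was above the highest at 140 d, so the groups did not overlap. The difference was -1.43 ± 0.43 (SE), or 2.7-fold lower, with an adjusted p of 0.023, and 8 of 8 fetuses at 140 d were below the mean at 130 d. Probe A_70_P029956 ranged from 6.65 to 7.22 (median 6.79) and from 3.03 to 6.61 (median 6.10) in the same fetuses. These ranges did not overlap either, and the difference of -1.07 ± 0.38 (SE), or 2.09-fold lower, had an adjusted p of 0.0518, just short of passing. Ranges that did not overlap, with 140 d lower, were found for 2 of the 16 tested IGF probes, both of them IGF2, and for 2.2% of all tested probes in control fetuses.

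Part of the IGF2 difference in control fetuses lay in 1 array. Control replicate 1 at 140 d read 12.9-fold below the mean of the other 7 fetuses of its group with A_70_P016796 and 9.02-fold below it with A_70_P029956. Without that array the remaining 7 ranged from 0.98 to 1.89 and from 5.89 to 6.61, still below every control fetus at 130 d. The differences were then -0.97 and -0.67, and A_70_P029956 passed the threshold with an adjusted p of 0.0486, so that the difference was smaller but its spread was smaller too. That probe also passed without control replicate 4, 5 or 7 at 140 d, and in the 4 fits in which it passed the differences ran from -1.18 to -0.67 (adjusted p 0.0378 to 0.0486). It did not pass without any 1 of the other 10 control arrays, with differences of -1.11 to -0.997 (adjusted p 0.0569 to 0.0986).

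In cortisol fetuses IGF2 was lower by values that did not pass the test. Probe A_70_P016796 ranged from 1.99 to 2.52 (median 2.37) at 130 d and from 0.20 to 2.39 (median 1.37) at 140 d, a difference of -0.97 ± 0.45 (SE) with an adjusted p of 0.151. Probe A_70_P029956 ranged from 6.52 to 7.20 (median 7.01) and from 5.00 to 7.20 (median 6.11), a difference of -0.84 ± 0.40 (SE) with an adjusted p of 0.162. The groups overlapped through 1 fetus for the first probe, cortisol replicate 4 at 140 d, without which the highest value at 140 d was 1.94. Without cortisol replicate 4 alone the differences were -1.15 (adjusted p 0.0813) and -1.02 (adjusted p 0.0727), and neither passed. An alternative chosen after the data were seen also left out control replicate 1 at 140 d. The differences in cortisol fetuses were again -1.15 and -1.02, each with an adjusted p of 0.000921. That control array is not among the cortisol fetuses, and it bears on this comparison only through the spread estimate that all groups share.

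Each slide held several arrays, and IGF2 was lower at 140 d within each of the 3 slides that held both ages. In control fetuses the differences were -2.79, -1.03 and -0.66 with A_70_P016796 in slides 2, 3 and 4, and -2.37, -0.68 and -0.27 with A_70_P029956. In cortisol fetuses they were -1.81, -0.37 and -0.41, and -1.64, -0.21 and -0.37. With 1 or 2 arrays of a group on a slide, 0 of these 12 within-slide differences passed the threshold. With the slide as a fixed block the control difference of A_70_P016796 was -1.49, with an adjusted p of 0.024.

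IGF1, the ligand that takes over much of growth control after birth, was read by 1 probe and did not pass the test in any comparison. Control fetuses ranged from -3.80 to -2.73 (median -3.14) at 130 d and from -4.70 to -2.77 (median -3.77) at 140 d, and cortisol fetuses from -3.74 to -2.61 (median -3.20) and from -4.60 to -1.28 (median -3.75). All 4 ranges overlapped. The age difference was -0.57 ± 0.36 (SE; adjusted p 0.276) in control fetuses and -0.11 ± 0.37 (SE; adjusted p 0.888) in cortisol fetuses. The highest IGF1 value of all 27 fetuses was that of cortisol replicate 4 at 140 d, 5.17-fold above the mean of the other 6 of its group, and without it the age difference in cortisol fetuses was -0.45 (adjusted p 0.31).

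IGF1R, the receptor through which both ligands signal, had 3 probes, none of which passed the test in any comparison. With A_70_P026721, the brightest of them, the lowest, median and highest levels were -0.96, -0.56 and -0.11 in control fetuses at 130 d, and -1.002, -0.53 and -0.20 in cortisol fetuses at 130 d. At 140 d they were -1.44, -0.55 and -0.03 in control fetuses and -1.05, -0.39 and 0.69 in cortisol fetuses. The medians moved less than the spread within a group, and all 4 groups overlapped. Between ages the 3 probes differed by -0.09 to -0.06 in control fetuses (adjusted p 0.767 to 0.838) and by 0.07 to 0.31 in cortisol fetuses (adjusted p 0.281 to 0.863). Control replicate 1 at 140 d was the lowest of its group for all 3 probes, 1.91-fold to 2.36-fold below the mean of the other 7.

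**Figure D2:**
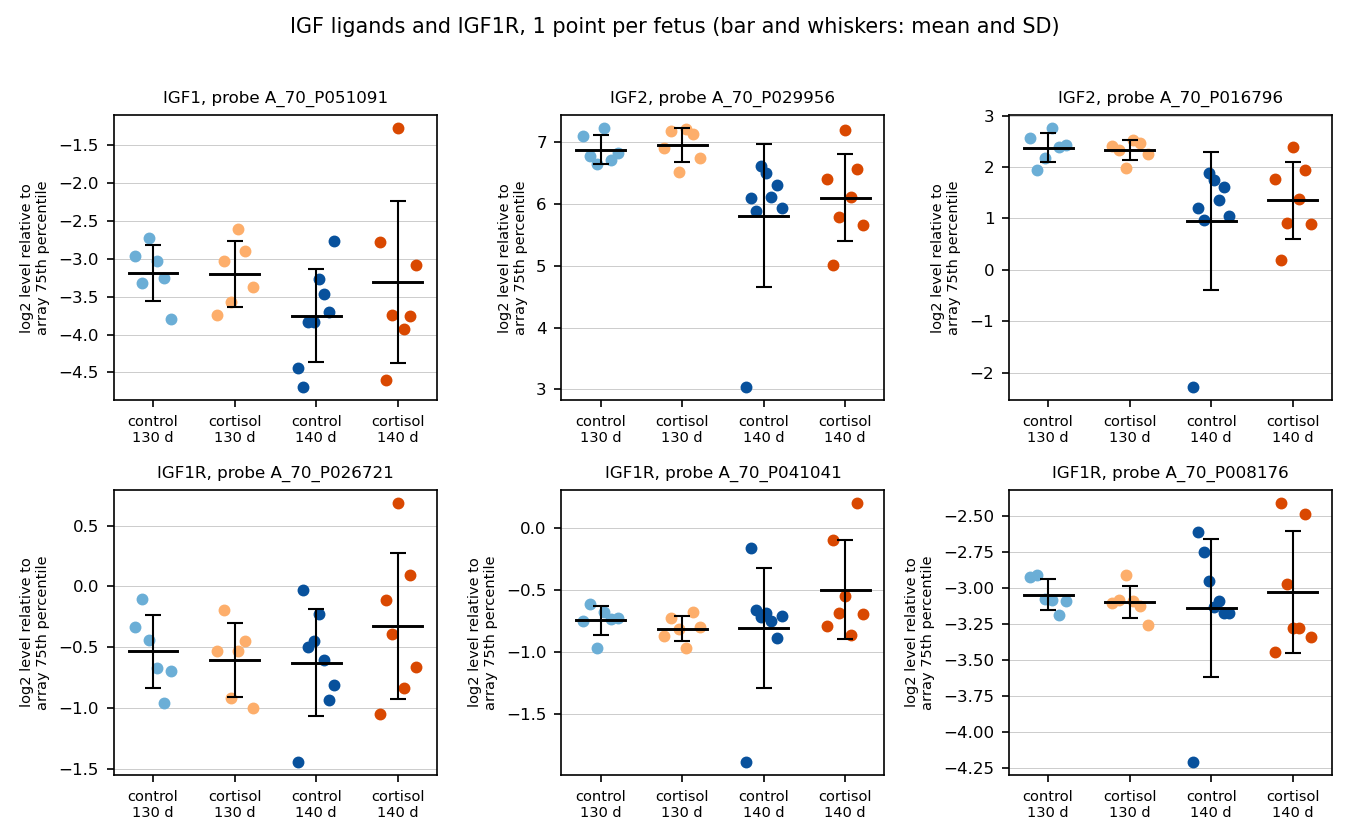
Log2 level relative to the array's 75th percentile (vertical axes, a separate range in each panel) for the IGF1, IGF2 and IGF1R probes in the 4 groups, 1 point per fetus, with the mean and SD as bar and whiskers. Both IGF2 panels show the 140 d control fetuses below all 130 d control fetuses with 1 array far below the rest at -2.28 and 3.03, and the IGF1 panel shows 1 cortisol fetus at 140 d at -1.28, above all others.

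Among the binding proteins, IGFBP2 showed the lowest adjusted p of the IGF probes. IGFBP2 is a secreted binding protein with a preference for IGF2, and is abundant in fetal life. With probe A_70_P050966, control fetuses ranged from 1.59 to 3.72 (median 3.57) at 130 d and from 0.65 to 2.18 (median 1.47) at 140 d. Cortisol fetuses ranged from 2.87 to 3.77 (median 3.35) and from 0.42 to 2.65 (median 1.83). The cortisol groups of the 2 ages did not overlap, and the control groups overlapped through 1 fetus. That fetus, control replicate 2 at 130 d, read 1.59, and the other 5 of its group ranged from 3.46 to 3.72, above every fetus at 140 d.

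The IGFBP2 difference was -1.84 ± 0.35 (SE), or 3.58-fold lower at 140 d, in control fetuses, with an adjusted p of 0.000961. In cortisol fetuses it was -1.70 ± 0.36 (SE), or 3.24-fold lower, with an adjusted p of 0.00296. The partner probe A_70_P050967 gave -1.89 (adjusted p 0.000835) and -1.73 (adjusted p 0.00268). All 8 control and all 7 cortisol fetuses at 140 d were below the mean of their group at 130 d. Ranges that did not overlap, with 140 d lower, were found for 2 of the 16 tested IGF probes in cortisol fetuses, both of them IGFBP2, and for 3.16% of all tested probes. The difference between the arms in the age change was 0.14 ± 0.50 (SE; 95% interval -0.89 to 1.17), with an adjusted p of 0.995 for this difference of differences.

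IGFBP2 passed the test in each of the 14 fits that left out 1 control array and each of the 13 that left out 1 cortisol array, with differences of -2.17 to -1.73 and -1.87 to -1.50 for A_70_P050966. Without control replicate 2 at 130 d the control groups no longer overlapped. Within slides 2, 3 and 4 the same probe differed by -1.43, -2.63 and -1.52 in control fetuses and by -2.81, -0.85 and -1.05 in cortisol fetuses. All 6 of these differences were below 0, and that of slide 3 in control fetuses passed the threshold (adjusted p 0.0339).

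IGFBP4, a binding protein that mostly restrains IGF action and is cut by the protease PAPPA, differed by less. With probe A_70_P017097, control fetuses ranged from 3.43 to 3.94 (median 3.68) at 130 d and from 2.52 to 3.64 (median 3.30) at 140 d, and cortisol fetuses from 3.53 to 3.83 (median 3.67) and from 2.70 to 4.12 (median 3.24). The ages overlapped in both arms, although 8 of 8 control fetuses at 140 d were below the control mean at 130 d. The difference was -0.50 ± 0.18 (SE), or 1.41-fold lower, in control fetuses with an adjusted p of 0.0495, and -0.44 ± 0.18 (SE) in cortisol fetuses with an adjusted p of 0.107. The partner probe A_70_P017096, its copy shifted by 1 base, gave -0.49 with an adjusted p of 0.0506, so the 2 readings of the same RNA lie on either side of the threshold.

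The call for IGFBP4 depended on the settings. With the median scale the A_70_P017097 difference was -0.41 (adjusted p 0.0894), with the authors' deposited table -0.40 (adjusted p 0.0917), and it passed in 4 of the 14 fits that left out 1 control array. Those were the fits without replicate 2 at 130 d or replicate 2, 5 or 6 at 140 d, with differences of -0.56 to -0.53 (adjusted p 0.0316 to 0.0482). Without replicate 1, 3, 4, 5 or 6 at 130 d, or replicate 1, 3, 4, 7 or 8 at 140 d, the differences were -0.52 to -0.40 (adjusted p 0.0504 to 0.112). The partner probe passed without replicate 2 at 130 d or replicate 2 or 6 at 140 d, with differences of -0.57 to -0.525 (adjusted p 0.0267 to 0.0496). In cortisol fetuses both probes passed without replicate 4 at 140 d, which was the highest of all fetuses, with differences of -0.59 and -0.60 (adjusted p 0.0106 and 0.00982). Within slides the sign did not hold throughout, since slide 3 gave 0.13 in cortisol fetuses for A_70_P017097.

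IGFBP5 and IGFBP6, binding proteins of connective tissue and muscle, had higher means at 140 d by amounts within the spread of the groups. With A_70_P041811, IGFBP5 had medians of -0.40 and -0.45 at 130 d in control and cortisol fetuses and 0.21 and 0.02 at 140 d, over ranges that overlapped. Its age differences were 0.29 ± 0.27 (SE; adjusted p 0.47) and 0.31 ± 0.28 (SE; adjusted p 0.497). IGFBP6, which prefers IGF2, had medians of 2.09 and 2.34 at 130 d and 2.35 and 2.39 at 140 d with A_70_P041817. Its differences were 0.19 ± 0.23 (SE; adjusted p 0.603) and 0.25 ± 0.23 (SE; adjusted p 0.525). IGFBP5 lies next to IGFBP2 on its chromosome in the RefSeq gene table, with 0 genes between them, and the age differences of this pair had opposite signs, of which only that of IGFBP2 passed the test.

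IGFBP3, the main carrier of IGFs in the adult circulation, was read by 1 GC-rich probe. Its lowest, median and highest levels were -4.76, -4.48 and -4.38 in control fetuses at 130 d and -5.39, -4.56 and -4.23 in cortisol fetuses at 130 d. At 140 d they were -4.96, -4.28 and -1.76 in control fetuses and -4.85, -4.55 and -3.68 in cortisol fetuses. The groups overlapped, and control replicate 3 at 140 d, at -1.76, stood far above the rest. The age difference in control fetuses was 0.44 ± 0.32 (SE; adjusted p 0.352), and 0.11 (adjusted p 0.735) without that fetus.

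IGFBP1, a binding protein made mainly by liver and decidua, was close to the limit of the array in the septum. Probe A_70_P069081 was above background on 11 of 27 arrays, namely 5 of 6 control and 3 of 6 cortisol fetuses at 130 d and 2 of 8 and 1 of 7 at 140 d. Its levels ran from -7.79 to -5.41 over all fetuses, and values below background are upper bounds. The age differences of -0.08 ± 0.31 (SE; adjusted p 0.891) and -0.35 ± 0.32 (SE; adjusted p 0.505) therefore include fetuses with only a bound, and a fold would not be meaningful. IGFBP1 lies next to IGFBP3 in the RefSeq gene table, with 0 genes between them.

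**Figure D3:**
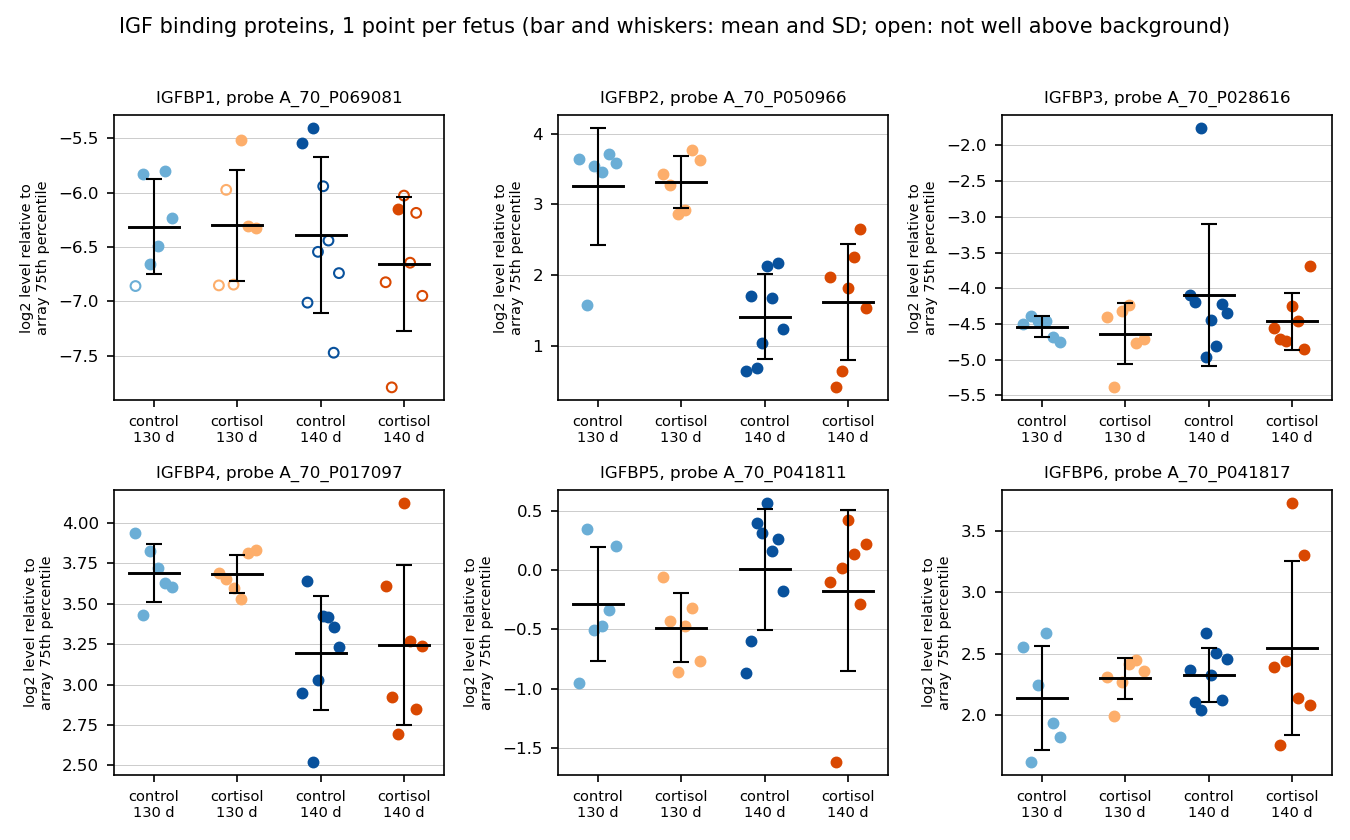
Log2 level relative to the array's 75th percentile (vertical axes, a separate range in each panel) for 1 probe of each binding protein in the 4 groups, 1 point per fetus, with the mean and SD as bar and whiskers; open points were not well above background. IGFBP2 lies between 2.87 and 3.77 in all but 1 of the 12 fetuses at 130 d and between 0.42 and 2.65 at 140 d, and the single high IGFBP3 point at -1.76 is a control fetus at 140 d.

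Maternal cortisol changed 0 of the 16 IGF probes at 130 d and 0 of 16 at 140 d, and it changed 0% of the 12770 tested probes in either comparison. An unadjusted p under 0.05 was reached by 455 of the 12770 tested probes at 130 d and 726 at 140 d. By chance a share of about 0.05 of unchanged probes falls under that limit. None of the IGF probes did so at either age. Over all probes the smallest adjusted p was 0.597 at 130 d and 0.487 at 140 d. At 130 d the IGF differences lay between -0.20 and 0.16, 7 above 0 and 9 below, with a median of -0.01 beside 0.01 over all tested probes. At 140 d they lay between -0.36 and 0.44, 12 above 0 and 4 below, with a median of 0.18 beside -0.04. Ranges of the 2 treatments overlapped for all 16 probes at both ages, as they did for all but 0.446% and 0.0157% of all tested probes.

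The intervals show what the comparison could and could not resolve. At 130 d the difference of IGFBP2 between treatments was 0.06 (95% interval -0.71 to 0.83), and that of IGF2 probe A_70_P029956 was 0.07 (-0.78 to 0.91). At 140 d IGFBP2 differed by 0.20 (-0.48 to 0.89), IGF2 by 0.29 (-0.47 to 1.05) and IGF1 by 0.44 (-0.26 to 1.15), each with an adjusted p of 0.808 or above. The tightest were the IGFBP4 probes, with -0.01 (-0.39 to 0.38) at 130 d and 0.05 (-0.30 to 0.40) at 140 d for A_70_P017097. A difference of 1 log2 unit in IGF2 or IGF1 at 140 d lies inside these intervals, so a p that misses the threshold does not show that the treatments were alike.

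The IGF1R probe A_70_P041041 had the smallest unadjusted p of the IGF probes for cortisol at 140 d, 0.0846, with a difference of 0.31 ± 0.17 (SE). Without control replicate 1 at 140 d that difference was 0.16, with an unadjusted p of 0.251. The higher IGF1 mean of cortisol fetuses at 140 d rested on replicate 4, without which the difference was 0.10 (adjusted p 0.988). The lower IGFBP3 mean rested on control replicate 3, without which the difference was -0.03 (adjusted p 0.979). For IGF2 the sign itself turned without control replicate 1 at 140 d alone. The difference went from 0.41 to -0.05 with A_70_P016796 and from 0.29 to -0.11 with A_70_P029956. Without cortisol replicate 4 alone both differences stayed positive, at 0.24 and 0.11. In the alternative chosen after the data were seen, which left out both arrays, they were -0.22 and -0.29.

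The test of whether the cortisol difference changed between ages called 0 of the 16 IGF probes, with adjusted p of 0.974 and above, and 0% of all tested probes (743 at an unadjusted p under 0.05). Averaged over both ages, cortisol differences of the IGF probes lay between -0.23 and 0.21 and again 0 of 16 were called, with adjusted p of 0.999, as were 0% of all tested probes (352 at an unadjusted p under 0.05).

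**Figure D4:**
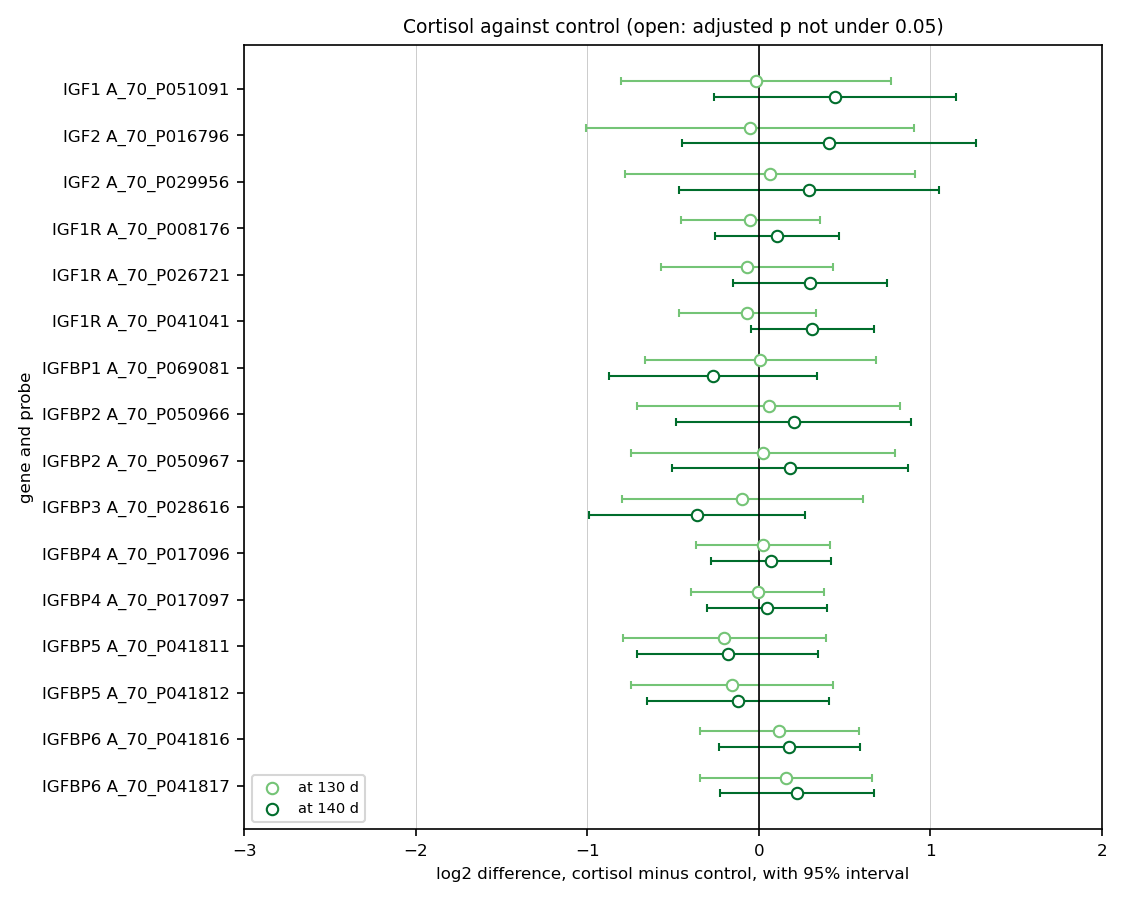
Log2 difference between cortisol and control fetuses for the 16 tested probes (vertical axis: gene and probe) at 130 d (light green) and 140 d (dark green), with the 95% interval; open points did not pass an adjusted p of 0.05. The 130 d points lie between -0.20 and 0.16, the 140 d points between -0.36 and 0.44, and each interval includes 0.

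The arrays that stood apart did so in opposite ways for some of these genes, such as IGF2, but not for all of them. In control replicate 1 at 140 d the IGF2, IGF1R and IGFBP5 probes and 1 IGFBP2 probe were below every other fetus of the group. IGFBP5 was 2.01-fold and 2.27-fold below the mean of the others with its 2 probes. In cortisol replicate 4 at 140 d, IGF1, both IGF2 probes, both IGFBP4 probes and both IGFBP6 probes were above every other fetus of the group. So were the IGF1R probe A_70_P026721, the IGFBP5 probe A_70_P041811 and the IGFBP1 probe A_70_P069081. IGFBP4 was 2.04-fold above the mean of the others with each probe, and IGFBP6 was 2.6-fold and 2.45-fold above it. Markers of several cell types moved with these arrays, and whether they have a part in the IGF values was not tested. Of 10 listed fibroblast genes, 6 could be tested (COL1A1, COL1A2, COL3A1, DCN, VIM and FBLN1). Their summed level was 80.7 in control replicate 1, the lowest of all fetuses, and 338 in cortisol replicate 4, the highest. The endothelial sum was likewise the lowest (2.63) and the highest (6.99) of all fetuses. The leukocyte sum was 0.597, the lowest of all, and 2.35, the highest of its group. MB went the other way, at 430, the highest of its group, and 182, the lowest of all. The adipocyte sum was 8.73, the highest of all, and 4.97, within the range of its group. Red cell genes and CNN1 lay within the range of their groups.

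**Figure D5:**
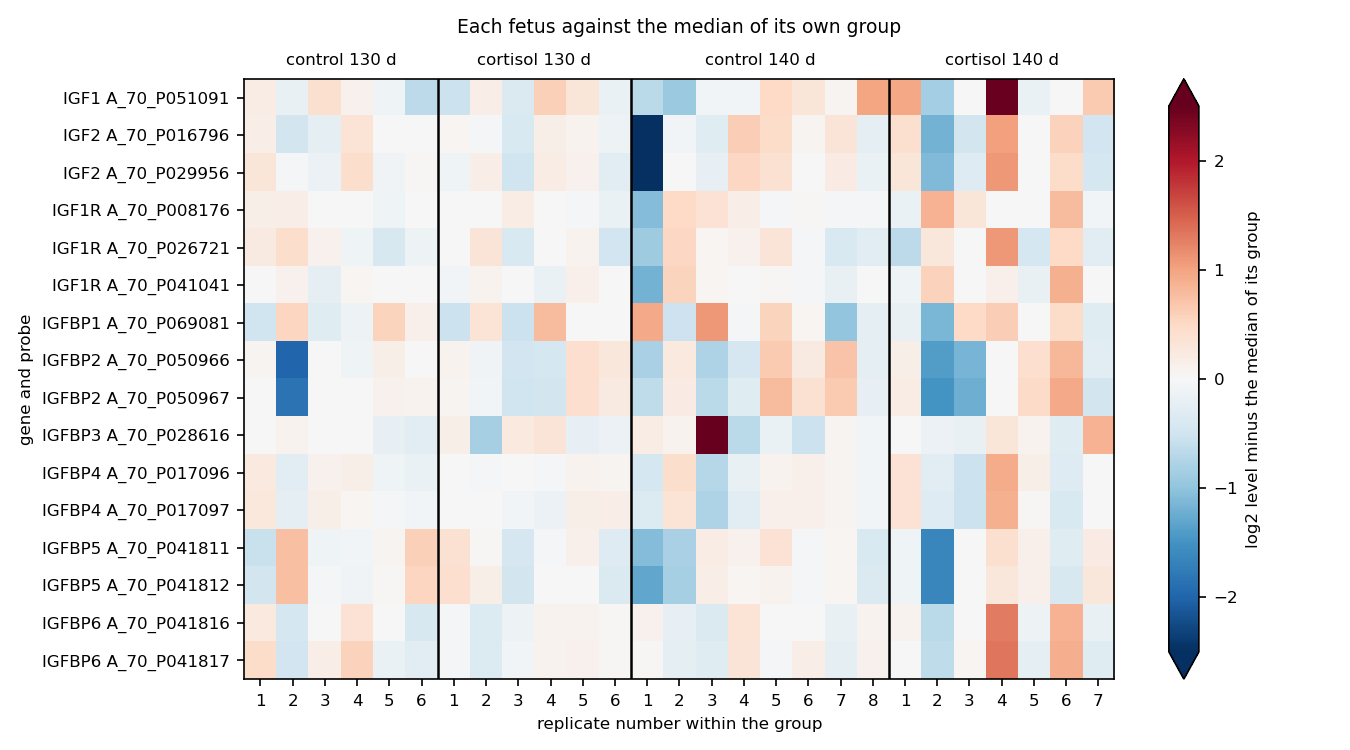
Log2 level minus the median of its group (colour, cut at 2.5 in both directions) for the 16 tested probes (rows) in the 27 fetuses (columns, by group and replicate number). Control replicate 1 at 140 d is low for IGF2, IGF1R and IGFBP5, cortisol replicate 4 at 140 d is high for IGF1, IGF2, IGFBP4 and IGFBP6, and control replicate 2 at 130 d is low for IGFBP2.

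Markers of other cells also differed between ages, and their part in the IGF differences was not tested. The summed fibroblast level ran from 143 to 223 in control fetuses at 130 d and from 80.7 to 183 at 140 d, and from 185 to 235 and 111 to 338 in cortisol fetuses, and 0 of its 6 genes were called in either arm, with median differences of -0.52 and -0.39. Red cell genes (HBB and AHSP, 2 of 8 listed) ran from 16.8 to 56.4 and from 3.02 to 28.0 in control fetuses, where both fell, and from 19 to 43.6 and 1.58 to 33.6 in cortisol fetuses, where neither was called. Leukocyte genes (5 of 11 listed) ran from 0.939 to 2.82 and from 0.597 to 0.939 in control fetuses, where 3 of 5 fell, and from 0.759 to 1.4 and 0.709 to 2.35 in cortisol fetuses, where 0 of 5 were called. Adipocyte genes (5 of 7 listed) ran from 3.0 to 5.77 and from 4.97 to 8.73 in control fetuses, where 3 of 5 rose, and from 2.63 to 4.37 and 4.69 to 8.12 in cortisol fetuses, where 2 of 5 rose. Endothelial genes (5 of 9 listed) ran from 2.9 to 5.05 and from 2.63 to 5.66 in control fetuses, and from 3.43 to 4.73 and 4.13 to 6.99 in cortisol fetuses, where 1 of 5 rose. The smooth muscle gene CNN1, 1 of 4 listed, ran from 6.95 to 25.2 and from 6.13 to 99.0 in control fetuses and from 9.58 to 30.1 and 6.27 to 40.2 in cortisol fetuses, and was not called.

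Of 54 further genes of IGF and insulin signalling, 10 had a named probe and 8 could be tested, and by the brightest probe of each gene 0 of 8 passed the test in any comparison. IGF2R, the receptor that clears IGF2 from the cell surface, had 3 probes, and its less bright probe A_70_P026306 passed in control fetuses. That probe ranged from -3.34 to -2.97 (median -3.28) at 130 d and from -4.63 to -3.29 (median -3.46) at 140 d, overlapping by little. Its difference was -0.41 ± 0.15 (SE), with an adjusted p of 0.0483, and the other IGF2R probes gave -0.50 (adjusted p 0.0619) and -0.52 (adjusted p 0.0791). Without control replicate 1 at 140 d, the lowest array, the A_70_P026306 difference was -0.26 (adjusted p 0.0462), and with the median scale it was -0.32 (adjusted p 0.0955). With normexp background correction no difference was left for this dim probe (adjusted p 1). It also failed to pass without any 1 of control replicates 1, 3, 4, 5 and 6 at 130 d or 2, 5 and 6 at 140 d, with adjusted p-values of 0.0535 to 0.106. In cortisol fetuses the 3 IGF2R probes differed by -0.20 to -0.33, and none passed (adjusted p 0.316 to 0.423). INSR, the insulin receptor, differed by -0.09 (adjusted p 0.686) and 0.10 (adjusted p 0.712). IGFALS, which stabilises circulating IGF complexes, had no named probe and was not analysed here.

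The named genes whose levels ran most like those of each member were listed over the 27 arrays and 696 named genes with a tested probe. These correlations share the groups, the scaling and the arrays that stood apart, and they are descriptions of these samples. IGFBP2 ran most like CIB1 (r = 0.897) and LGALS1 (r = 0.885), and within groups at r = 0.713 and 0.644. IGF2 ran most like SLPI (r = 0.876) and TGFB1 (r = 0.873), within groups at 0.838 and 0.814. Without the 2 fetuses farthest from the IGF2 median these were 0.863 and 0.69. IGF1 ran most like C3 (r = 0.836) and COL1A1 (r = 0.814), within groups at 0.819 and 0.791. IGFBP4 ran most like IRF3 (r = 0.831) and CREM (r = 0.79). For IGF1R the genes were EPAS1 (r = 0.778) and INSR (r = 0.733), at 0.534 and 0.54 without the 2 farthest fetuses. For IGFBP5 they were HIF3A (r = 0.714) and FTH1 (r = 0.658), at 0.623 and 0.532 without the 2 farthest. For IGFBP1 they were GRIA3 (r = 0.716) and GCG (r = 0.715). The IGFBP1 probe was above background on only 11 of 27 arrays, so most of the values correlated there lie near the floor. For IGFBP3 and IGFBP6 the likeness fell most when the 2 farthest fetuses were left out together. IGFBP3 and HSD11B2 gave r = 0.798, and 0.438 without the 2 farthest fetuses, and IGFBP6 and CDKN1B gave r = 0.694, and 0.196 without the 2 farthest.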

How the data were processed

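The values came from the scanner files of 27 Agilent arrays, which hold a processed intensity per spot; the submitters' processing notes credit the authors' processing to Feature Extraction (Agilent), version 10.1.1.1. Log2 was taken of each spot and the array's 75th percentile, over all its gene probe spots, was subtracted. Spots flagged as outliers were then left out, and the log2 values of a probe's spots were averaged. The deposited log2 table, the authors' processed values of the same arrays, equalled log2 intensity less 1 constant per array and served as an alternative. Flags for background, saturation and outlying spots are other values deposited in the same files.

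All 4 groups were fitted together with limma 3.58.1 (lmFit, eBayes) in R 4.3.3, with Benjamini-Hochberg adjustment over 12770 probes and a threshold of 0.05; the fit was tested on simulated data. With 6 to 8 arrays per group, the number of arrays limits the precision. P-values measure the spread between these fetuses. Every fetus was counted as a separate sample in the fit, also the unmarked twins among the control fetuses at 140 d.

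Every probe of the IGF genes is reported. Members, lists and alternatives were chosen with earlier results of these data known. Probe names were taken from the array files or, by accession, from the RefSeq gene table of assembly ARS-UI_Ramb_v3.0. The same gene table gave which genes are neighbours, and no probe was placed on a genome. In the likeness search each gene was read by its brightest tested probe. Alternatives covered background correction, scale, filter, slide, replicate number and each array left out. Replicate numbers were not used to pair the samples in the main fit.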

Additional observations from a re-analysis of the deposited data

Results flagged for a closer look

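Of the 72 combinations of a probe and a group, 10 held a fetus beyond Dixon's limit for an outlying value. Chance gives about 5%, and probes of the same gene are not independent readings. Flags were also common over all tested probes. Control replicate 1 and cortisol replicate 4 at 140 d alone were flagged at 11.3% and 13.4% of them. The IGF count is therefore not read as particular to these genes.

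Control replicate 1 at 140 d was the low one for IGF2, at -2.282 and 3.033 with its 2 probes, where the other 7 fetuses lay at 0.98 to 1.89 and 5.89 to 6.61. The same array was low for IGF1R, at -1.888 with A_70_P041041 and -4.206 with A_70_P008176. Control replicate 2 at 130 d was low for IGFBP2, at 1.704 and 1.589 with the shifted pair, against 3.46 to 3.72 in the others with the second of these probes. Control replicate 3 at 140 d was high for IGFBP3, at -1.756, where the others lay at -4.96 to -4.09.

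Cortisol replicate 2 at 140 d was low for IGFBP5, at -1.624 and -1.621 with the shifted pair. Control replicate 2 at 140 d was high for the IGFBP1 probe A_70_P016366, at -7.035, a value not well above background, as in all other arrays.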

How the results depend on the processing

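Both IGFBP2 probes passed the test in both arms under all 12 alternatives other than single slides, and with any 1 array left out. Among these 12, fewer arrays were used by the replicate block, the fit of only the compared groups and the fit without both arrays that stood apart. The within-slide differences of A_70_P050966 are given above, and that of slide 3 in control fetuses passed. The IGF2 probe A_70_P016796 kept its direction in control fetuses throughout and was not called with normexp correction (-1.35, adjusted p 0.0574) or when only the compared groups were fitted (-1.43, adjusted p 0.0616); the cause was not tested. Over all probes, called numbers for control and cortisol fetuses between ages were 536 and 339 with normexp, against 2442 and 1719. Within slides 2, 3 and 4, with few arrays each, they were 3, 5 and 2 in control and 1, 0 and 29 in cortisol fetuses, and cortisol at 140 d called 1 probe within slide 2. Leaving out both arrays that stood apart gave 2897 in cortisol fetuses. Leaving out 1 array gave 1650 to 2823 and 1286 to 2419, and 0 to 2 for the change of the cortisol difference between ages. Deviations of same-numbered fetuses of different groups correlated at -0.167 to 0.363 (36 pairs, 12 over 0.1, median 0.046). Fetuses with different numbers were not compared, and many of these pairs shared a slide. The check therefore does not settle whether the numbers pair the samples. With the replicate block 2347 and 1492 probes were called, with IGFBP4 probe A_70_P017097 at -0.53 (adjusted p 0.078) in control fetuses. Without the filter on dim probes the IGFBP1 probe A_70_P016366 was called in control fetuses (0.65, adjusted p 0.0188), although it was above background on 0 of 27 arrays.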
